A study of Canis lupus with 20 samples.

Results

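Chemokines, interleukins and their receptors are the signalling genes through which tissue cells and leukocytes recruit and activate each other. The members described here are the genes of the dog array whose symbol names a CC or CXC chemokine (CCL, CXCL), a receptor for one (CCR, CXCR), or an interleukin, an interleukin receptor or a gene named after one (IL followed by a digit). The rule found 115 genes among 15115 that the array annotation names with 1 symbol, on 174 probe sets, and each of the 43 genes with several probe sets is represented by the one with the highest mean over all arrays. CXCR4, the main receptor of CXCL12, has no probe set with 1 symbol in that annotation and is not analysed here.

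The tissue came from dogs described only as normal, without breed, sex or age, that had their right kidney removed (uninephrectomy) or underwent a sham operation, 12 weeks before the heart was taken. Affymetrix canine arrays were run on the left atrium and the left ventricle after each operation, 5 per chamber and operation, which makes 4 groups and 20 arrays. No group carried a genetic change or a drug according to the labels. According to the design text, each operation had 6 dogs, of which 5 samples per chamber were arrayed once, and the labels do not name the dog behind an array. All values are log2 signals, differences are log2 differences ± standard error (SE), and arrays are numbered 1 to 5 within their group, in which order their values are given.

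Chemokines are small secreted proteins that leukocytes follow along a gradient through receptors coupled to G proteins. Interleukins act through receptor chains that are shared between ligands, such as IL6ST for IL6, IL11 and IL27, IL2RG for IL2 and IL15, and IL17RA for several members of the IL17 family. In the heart most of the ligands are made by fibroblasts, endothelium and resident macrophages, and most of the chemokine receptors sit on leukocytes, which are a small share of the tissue.

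The labelled chambers carried their markers. All 3 measured atrial markers (MYL7, MYL4 and NR2F1) were called higher in the atrium, and all 3 tested ventricular markers (MYL2, MYL3 and IRX5) lower, under both operations. Of 5 fibroblast markers, 3 were called higher in the atrium in sham dogs and 4 after uninephrectomy, and their mean signal was 9.73 in sham atrium (range over arrays 9.26 to 10.26) against 8.83 in sham ventricle (8.63 to 9.14). Of 5 smooth muscle and pericyte markers 3 were called higher in sham atrium, with means of 8.69 and 7.82. After uninephrectomy 3 were called higher and 1 lower. Of 4 adipocyte markers 2 were higher in sham atrium, with means of 3.47 and 2.26. Of 5 endothelial markers 2 were lower in sham atrium, with means of 6.69 and 7.01. Of all 30047 probe sets tested, 20.8% were called between sham chambers and 27.3% after uninephrectomy. Lists of 4 or 5 markers are too short to set against those shares. Many leukocyte markers were dim. Of 10 T and NK cell markers 9, and of 9 macrophage markers 4 (CD68, CSF1R, ITGAM and MSR1), stayed under log2 3 on every array. The other macrophage markers, CD163, CD14, AIF1, MRC1 and C1QA, reached it on some array. The macrophage list averaged 3.75 in sham atrium and 3.71 in sham ventricle. Of 5 measured neutrophil markers 3 stayed under log2 3, and that list averaged 4.47 in sham atrium and 4.51 in sham ventricle. In bulk tissue such as this, fewer cells of a type and less RNA per cell cannot be told apart. The 3′ gap, a measure of RNA degradation from control probe sets (the log2 excess of 3′ over middle or 5′ signal), averaged 1.19 ± 0.19 (SD, n = 5) in sham atrium, 1.10 ± 0.26 in uninephrectomized atrium, 1.42 ± 0.27 in sham ventricle and 1.14 ± 0.15 in uninephrectomized ventricle.

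No chemokine receptor and only some of the ligands and interleukin receptors were measured clear of the low end of the scale. Signals of different probe sets cannot be ranked against each other, so what follows counts how many members rose above the crowded low end, taken as log2 3. Of the 115 members, 77 did not reach log2 3 on any array, 24 reached it on all 20, and 34 had a group mean at or above it. Among 20 CC chemokines 7 were at or above log2 3 on every array (CCL2, CCL4, CCL8, CCL14, CCL20, CCL21 and CCL23), and 10 reached it on no array. Among 6 CXC chemokines 4 were at or above it on every array (CXCL8, CXCL10, CXCL12 and CXCL16). None of the 8 CCR receptors reached it: their means over 20 arrays ran from 1.16 to 1.69, with a highest single value of 2.00 for CCR3, the eotaxin receptor. None of the 3 CXCR receptors did so either, with a highest value of 2.70 for CXCR3, the receptor of CXCL10. Of 34 interleukins 4 were above log2 3 on every array (IL6, IL15, IL18 and IL33) and 25 on none, among them IL2, IL4, IL10 and IL13. Of 44 interleukin receptors and related genes 9 were above it on every array and 30 on none.

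**Figure D1:**
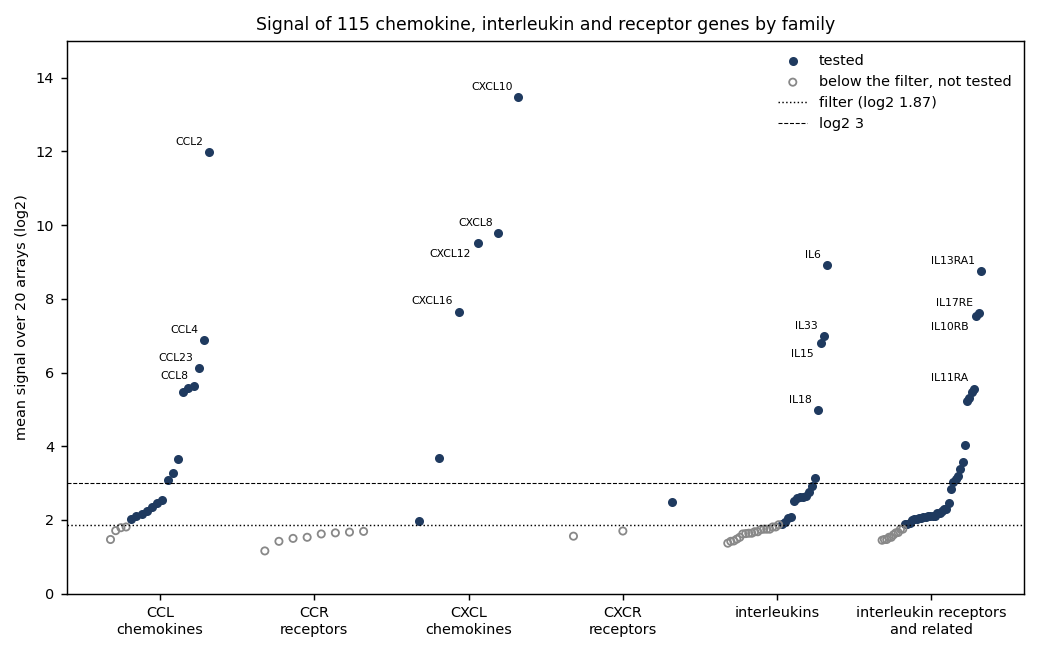
Mean log2 signal over 20 arrays (y axis) of each of the 115 members, ordered within its family (x axis), with filled points for the 73 members tested and open points for the 42 below the filter at log2 1.87; the dashed line marks log2 3 and the 4 highest members of a family are named where they exceed it. All 8 CCR receptors lie below the filter. Heights of different probe sets are not comparable as amounts of RNA.

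The dimmest 30% of probe sets, with a mean under log2 1.87, were not tested, which left 30047 probe sets and 73 of the 115 members: 16 CCL, 6 CXCL, 1 CXCR, 16 interleukins and 34 interleukin receptors and related genes. CCR2, the receptor of CCL2, was among the 42 not tested, at 1.47 ± 0.07 (SD, n = 5) in sham atrium and at most 1.76 on any array. IL10, an interleukin that restrains macrophages, was also among them, with no array above 1.83.

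Atrium and ventricle of sham dogs differed in 9 of the 73 tested members (12.3%), against a background of 20.8% of all 30047 probe sets. A member was called at a limma p under 0.05 after Benjamini-Hochberg adjustment over all probe sets tested. The 6 called higher in the atrium were CXCL14, IL33, IL27RA, CXCL16, IL11RA and IL17RA (background of higher calls 11.2%), and the 3 called lower were IL15, IL17RB and IL20RB (background of lower calls 9.62%). Of the 32 members with a mean of at least log2 3, 7 were called (21.9%) against 30.9% of 16670 such probe sets. The count was 5 when sham atrial array 5 was omitted and 4 when sham ventricular array 4 was. The share over all probe sets in those fits is not given here, so these counts have no background beside them.

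After uninephrectomy 11 of the 73 differed between the chambers (15.1%), against a background of 27.3%. IL33, CXCL16, CCL23, IL27RA, IL17RA, CCL2, CXCL12, IL16 and IL17RE were called higher in the atrium (background 14.7%), and IL15 and IL1R1 lower (background 12.5%). With quantile normalization of the arrays the split was 7 higher and 3 lower, given without the shares over all probe sets in that fit. Among the 32 members above log2 3 the called share was 28.1% against 39.1%. IL33, CXCL16, IL27RA and IL17RA were called higher and IL15 lower under both operations; these 5 make up 55.6% of the sham calls and 45.5% of the calls after uninephrectomy. The median difference over the tested members was -0.00 in sham and -0.01 after uninephrectomy, beside -0.01 and -0.02 over all probe sets.

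**Figure D2:**
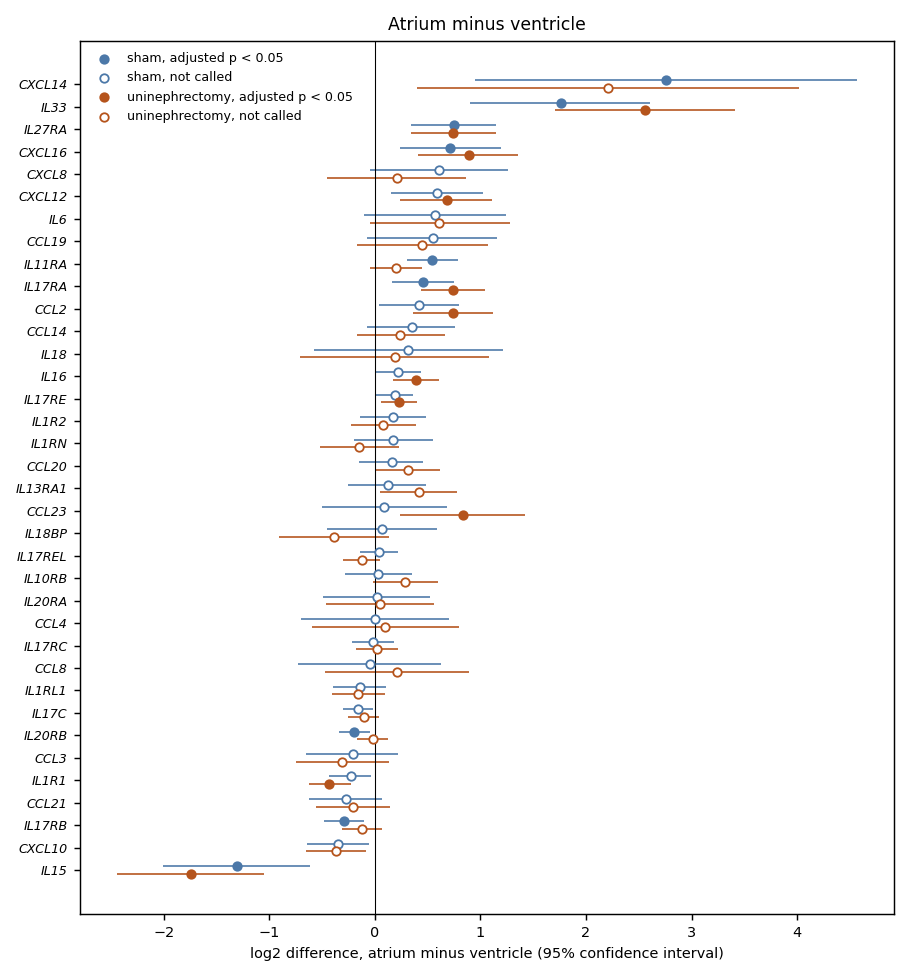
Log2 difference between atrium and ventricle (x axis, points) with its 95% confidence interval (lines) for members of mean signal log2 3 or above and other called members (y axis), in sham and uninephrectomized dogs, n = 5 arrays per group; filled points passed an adjusted p of 0.05. IL33 and CXCL14 lie farthest to the right and IL15 farthest to the left in both.

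IL33, a nuclear cytokine of stromal and endothelial cells that is released on cell damage, was 3.38-fold higher in the sham atrium and 5.90-fold higher in the atrium after uninephrectomy. In sham dogs it read 7.34, 8.55, 7.25, 7.37 and 9.20 in the atrium and 6.78, 6.28, 6.66, 5.89 and 5.33 in the ventricle. Every atrial array was above every ventricular one, with arrays 2 and 5 the highest of the atrium. The difference was 1.76 ± 0.41 (adjusted p = 0.00424). After uninephrectomy the atrium read 7.55, 8.68, 8.26, 8.05 and 8.29 and the ventricle 6.44, 4.61, 6.32, 5.27 and 5.39, again without overlap, and the difference was 2.56 ± 0.41 (adjusted p = 0.00012). Both calls held when any one array was left out, with differences from 1.44 to 1.93 and from 2.31 to 2.77. Its receptor chain IL1RL1, also known as ST2, stood near log2 3 in all groups, at 3.01 ± 0.11 (SD, n = 5) in sham atrium and a difference between sham chambers of -0.14 ± 0.12 (adjusted p = 0.458). The co-receptor IL1RAP was dimmer, with no array above 2.33.

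IL15, which sustains NK cells and memory T cells, went the other way and was 2.48-fold lower in the sham atrium. It read 6.27, 6.17, 7.23, 6.42 and 6.04 in the sham atrium and 7.68, 7.75, 7.89, 7.75 and 7.60 in the sham ventricle. The ventricular arrays lay within a narrow band above every atrial array. The sham difference was -1.31 ± 0.33 (adjusted p = 0.00818). Uninephrectomized atria were spread more widely, at 6.50, 4.60, 6.45, 5.57 and 5.11, against 7.65, 7.77, 7.84, 6.41 and 7.28 in the ventricle, where array 4 lay below the 2 highest atrial arrays. That difference was -1.74 ± 0.33 (adjusted p = 0.000654). The second IL15 probe set, dimmer, gave the same direction, with -0.70 ± 0.16 (adjusted p = 0.00462) in sham and -0.68 ± 0.16 (adjusted p = 0.00436) after uninephrectomy. The chains that bind IL15 stayed at the low end, with no array above 2.25 for IL15RA, 2.74 for IL2RB and 2.24 for IL2RG. For IL15RA the sham difference was -0.04 ± 0.09 (adjusted p = 0.825). The NK and T cell markers averaged 2.22 in sham atrium and 2.16 in sham ventricle.

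**Figure D3:**
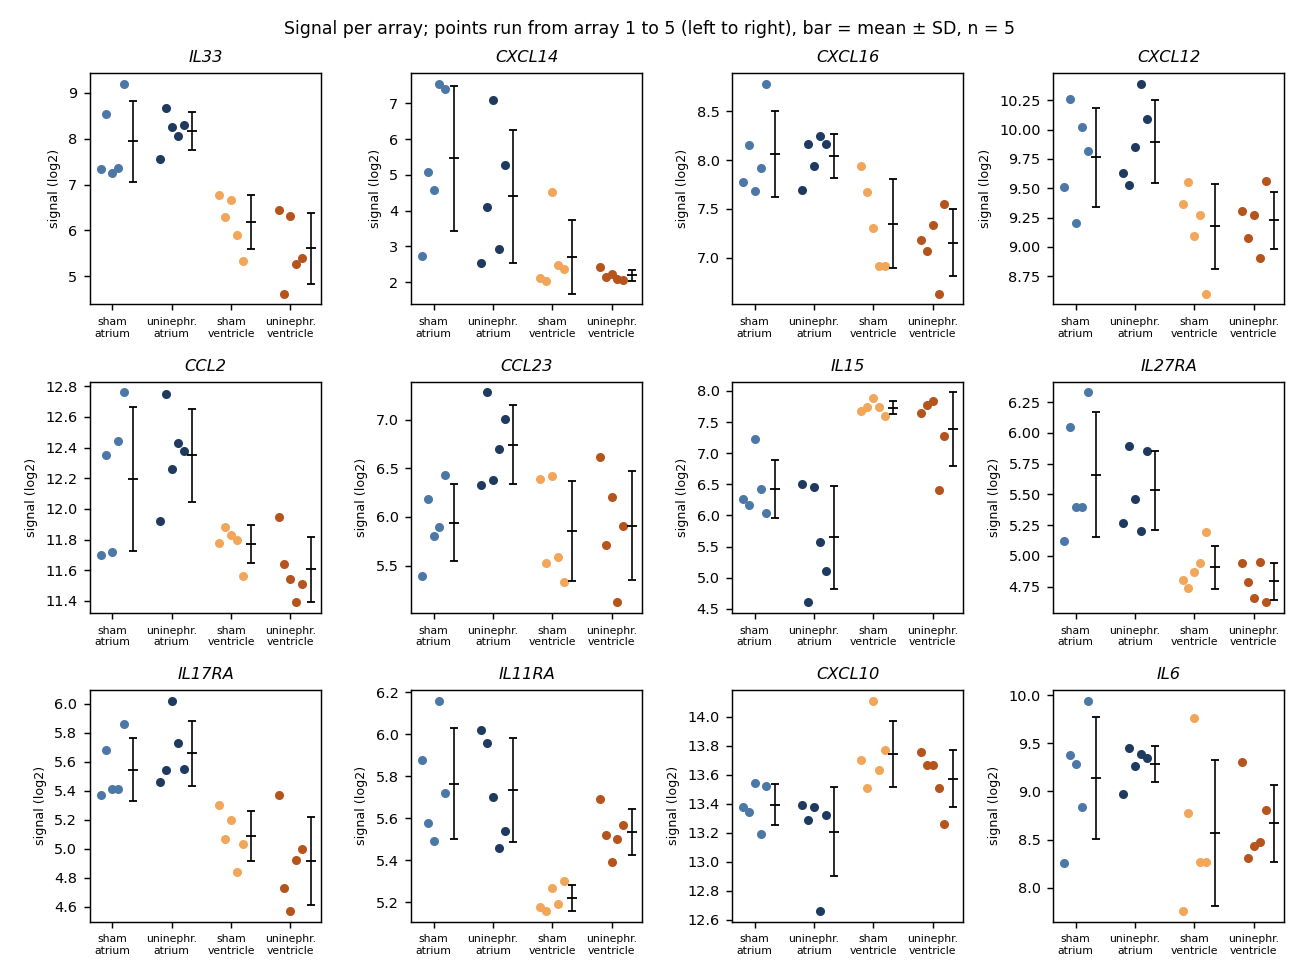
Log2 signal (y axis, a separate scale for each gene) on each of the 20 arrays for 12 members, by group (x axis); points are arrays 1 to 5 from left to right and the bar beside them is the mean with its SD, n = 5. IL33 and IL17RA separate the chambers without overlap under both operations, IL15 does so in sham dogs, and CXCL14 is spread widely in the atrium.

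Among the CXC chemokines CXCL14 had the largest difference and the widest spread. CXCL14 is a chemokine made constitutively by epithelial and stromal cells. The sham atrium read 2.73, 5.07, 4.57, 7.55 and 7.39, and the sham ventricle 2.11, 2.03, 4.51, 2.47 and 2.37. Atrial array 1 was close to the ventricular level while ventricular array 3 was at the level of atrial array 3, so the groups overlapped. The difference was 2.76 ± 0.86, or 6.79-fold (adjusted p = 0.0283). In a limma fit of the sham arrays alone the call was lost (adjusted p = 0.0575). With the array number added to that fit as a block, since equal numbers paired the sham arrays, the adjusted p was 0.0524. Fits below with the array number as a block likewise used the arrays of 1 operation only. Omitting sham atrial array 4 or 5, or sham ventricular array 1, 2, 4 or 5, also ended the call, with adjusted p from 0.0529 to 0.0841 and differences from 2.24 to 2.71. After uninephrectomy the atrium read 2.54, 4.11, 7.10, 2.94 and 5.29 and the ventricle 2.42, 2.13, 2.24, 2.08 and 2.06, which did not overlap, and the difference of 2.21 ± 0.86 did not pass (adjusted p = 0.065). The second CXCL14 probe set passed under both operations, with 2.89 ± 0.93 (adjusted p = 0.033) in sham and 2.60 ± 0.93 (adjusted p = 0.0451) after uninephrectomy. Of the 4 adipocyte markers, ADIPOQ (3.83 ± 0.83, adjusted p = 0.00264) and CIDEC (0.83 ± 0.29, adjusted p = 0.0478) were called higher in the sham atrium, while LEP and PLIN1, under log2 3 on every array, were at 0.25 and -0.06. After uninephrectomy only ADIPOQ was called. The adipocyte list averaged 3.47 over sham atrial arrays (lowest 2.29, highest 4.62) and 2.26 over sham ventricular arrays, and after uninephrectomy it ranged from 2.48 to 3.64 in the atrium and from 2.07 to 2.18 in the ventricle; its part in the CXCL14 difference was not tested.

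CXCL16, a membrane-bound chemokine that also takes up oxidized lipoprotein, was 1.64-fold higher in the sham atrium and 1.85-fold higher after uninephrectomy. Its sham values were 7.78, 8.15, 7.68, 7.92 and 8.78 in the atrium and 7.94, 7.67, 7.30, 6.92 and 6.92 in the ventricle. Ventricular array 1 reached into the atrial range. The sham difference was 0.71 ± 0.22 (adjusted p = 0.0293). In a fit of the sham arrays alone it did not pass, without a block (adjusted p = 0.0794) or with the array number as one (0.108). Nor did it pass with the 3′ gap as a covariate (0.69 ± 0.25, adjusted p = 0.0543). Omitting sham atrial array 2 or 5 or sham ventricular array 3, 4 or 5 also ended the call (adjusted p from 0.0517 to 0.0892, differences from 0.53 to 0.70). After uninephrectomy the atrium read 7.69, 8.16, 7.94, 8.25 and 8.16 and the ventricle 7.18, 7.07, 7.34, 6.63 and 7.55. These groups did not overlap, and the difference of 0.89 ± 0.22 (adjusted p = 0.00621) held without any one array. CXCR6, its receptor, lay below the filter with no array above 1.95.

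CXCL12, the chemokine that retains progenitor cells and guides vessel growth, was 1.60-fold higher in the atrium after uninephrectomy. There the atrium read 9.63, 9.53, 9.85, 10.39 and 10.09 and the ventricle 9.31, 9.08, 9.27, 8.91 and 9.56. The highest ventricular array passed the lowest atrial one by a small margin. The difference was 0.68 ± 0.21 (adjusted p = 0.021); without uninephrectomized atrial array 4 or 5 or ventricular array 4 the adjusted p was 0.0627, 0.0502 and 0.0577, with differences of 0.55, 0.63 and 0.60. In sham dogs the values were 9.51, 10.26, 9.20, 10.02 and 9.82 against 9.37, 9.55, 9.09, 9.27 and 8.60, and the difference of 0.59 ± 0.21 missed the threshold (adjusted p = 0.0527). It passed with the 3′ gap as a covariate (0.67 ± 0.22, adjusted p = 0.0393), and at the same 0.59 with quantile normalization (0.0438), a variance trend (0.0453), a random block (0.0385) or only probe sets above log2 3 (0.039). It also passed without sham atrial array 1 (0.65, 0.0482) or 3 (0.73, 0.0162), sham ventricular array 2 (0.68, 0.0345) or uninephrectomized atrial array 4 (0.59, 0.042). The atrial array was the higher one in 5 of 5 sham pairs. A second, dimmer CXCL12 probe set gave 0.21 ± 0.17 in sham (adjusted p = 0.413) and 0.26 ± 0.17 after uninephrectomy (adjusted p = 0.276). ACKR3, the scavenging receptor of CXCL12, was lower in the atrium, with a difference of -0.85 ± 0.11 in sham (adjusted p = 2.94e-05) and -0.71 ± 0.11 after uninephrectomy (adjusted p = 0.00013).

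CXCL10, an interferon-induced attractant of T cells, had the opposite sign. The sham atrium read 13.38, 13.34, 13.54, 13.19 and 13.52 and the sham ventricle 13.70, 13.51, 14.11, 13.63 and 13.77. The atrial array was the lower one in 5 of 5 pairs, although the groups overlapped. The difference of -0.35 ± 0.14 was not called (adjusted p = 0.0789) but was with the array number as a block (adjusted p = 0.0254). After uninephrectomy it was -0.37 ± 0.14 (adjusted p = 0.0567). The second CXCL10 probe set gave -0.34 ± 0.15 in sham (adjusted p = 0.122) and -0.45 ± 0.15 after uninephrectomy (adjusted p = 0.0324). CXCL8, the neutrophil attractant, read 9.64, 10.58, 9.97, 10.50 and 11.00 in the sham atrium and 9.09, 10.27, 9.64, 9.91 and 9.75 in the sham ventricle. Each atrial array exceeded its paired ventricular array. The difference was 0.61 ± 0.31 (adjusted p = 0.19), and adjusted p = 0.0266 with the array number as a block. Of the neutrophil markers 4 were tested and none was called in either chamber comparison.

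None of the 16 tested CC chemokines was called between sham chambers (background 20.8%), with 1 at an unadjusted p under 0.05 by limma (6.25%, against 32.9% of all probe sets). After uninephrectomy 2 were called (12.5%, background 27.3%). CCL2, which draws monocytes from blood, read 11.92, 12.75, 12.26, 12.43 and 12.38 in the uninephrectomized atrium and 11.95, 11.64, 11.54, 11.39 and 11.51 in the ventricle. Only atrial array 1 and ventricular array 1 overlapped. The difference was 0.74 ± 0.18, or 1.67-fold (adjusted p = 0.00491), and it passed without any one array. In sham dogs CCL2 read 11.70, 12.35, 11.72, 12.44 and 12.76 against 11.78, 11.88, 11.83, 11.80 and 11.56. The sham atrium fell into arrays at the ventricular level (1 and 3) and arrays above it (2, 4 and 5). That difference was 0.42 ± 0.18 (adjusted p = 0.11). It passed without sham atrial array 1 (0.55, adjusted p = 0.0375) or array 3 (0.54, adjusted p = 0.0394), and was 0.28 without array 5.

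CCL23, an attractant of monocytes and resting T cells, differed between the chambers of uninephrectomized dogs by 0.83 ± 0.28, or 1.78-fold (adjusted p = 0.0342). It read 6.33, 7.28, 6.38, 6.70 and 7.01 in that atrium and 6.61, 5.71, 6.20, 5.12 and 5.91 in that ventricle. Without uninephrectomized atrial array 2, 4 or 5 or ventricular array 2, 4 or 5 the call was lost (adjusted p from 0.0532 to 0.103, differences from 0.63 to 0.84), and quantile normalization also ended it (adjusted p = 0.0734). Sham atrium and ventricle stood at 5.39, 6.18, 5.80, 5.90 and 6.43 and at 6.39, 5.53, 6.42, 5.59 and 5.33, a difference of 0.09 ± 0.28 (adjusted p = 0.866). The macrophage markers averaged 3.89 (range 3.73 to 4.06) in uninephrectomized atrium and 3.71 (3.43 to 4.03) in the ventricle, and 1 of 9, CD14, was called higher in that atrium; their part in the CCL2 and CCL23 differences was not tested. CCL4, CCL8, CCL14, CCL20 and CCL21 did not pass in either comparison, with differences between -0.27 and 0.35.

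IL6, the acute phase cytokine, was not called between the chambers. The sham atrium read 8.26, 9.38, 9.28, 8.84 and 9.94 and the sham ventricle 7.76, 8.78, 9.76, 8.27 and 8.27. Only ventricular array 3 exceeded its atrial partner. The difference was 0.57 ± 0.32 (adjusted p = 0.227), but 0.87 ± 0.28 without that array (adjusted p = 0.0328) and 0.88 ± 0.29 with the 3′ gap as a covariate (adjusted p = 0.0388). That array had the largest 3′ gap of the 20, at 1.83. After uninephrectomy the difference was 0.61 ± 0.32 (adjusted p = 0.166). IL1B read at most 3.34 on any array and differed by 0.13 ± 0.15 between sham chambers (adjusted p = 0.601). IL18 ranged from 3.86 to 6.09 in the sham atrium alone, with a sham difference of 0.31 ± 0.43 (adjusted p = 0.669) that was 0.05 without sham atrial array 5 and 0.61 without array 1.

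Of 34 tested interleukin receptors and related genes 5 were called in sham dogs (14.7%, background 20.8%) and 4 after uninephrectomy (11.8%, background 27.3%). IL27RA, the chain specific for IL27, read 5.12, 6.05, 5.40, 5.40 and 6.33 in the sham atrium and 4.80, 4.74, 4.87, 4.94 and 5.19 in the sham ventricle. The difference was 0.75 ± 0.19, or 1.68-fold (adjusted p = 0.00899), and 0.74 ± 0.19 after uninephrectomy (adjusted p = 0.00729), where the groups did not overlap. Both calls held without any one array. A second IL27RA probe set, under log2 3 in every group mean, gave -0.18 ± 0.12 (adjusted p = 0.333) and 0.05 ± 0.12 (adjusted p = 0.804). IL27 itself was below the filter, with no array above 1.68.

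IL11RA, the receptor of the fibroblast-acting cytokine IL11, was 1.46-fold higher in the sham atrium. It read 5.88, 5.58, 5.49, 6.16 and 5.72 there against 5.18, 5.16, 5.27, 5.19 and 5.30 in the sham ventricle, with no overlap. The difference of 0.54 ± 0.12 (adjusted p = 0.0027) held without any one array, from 0.45 to 0.61. After uninephrectomy the atrium read 6.02, 5.96, 5.70, 5.46 and 5.54 and the ventricle 5.69, 5.52, 5.39, 5.50 and 5.57. The chambers now overlapped, and the difference was 0.20 ± 0.12 (adjusted p = 0.228). IL11 was below the filter, with no array above 1.82. IL6ST, the signalling chain shared by these receptors, lay close to log2 3 with a sham difference of -0.01 ± 0.12 (adjusted p = 0.968), whose sign depended on single arrays (-0.09 to 0.05) and was 0.00 with the 3′ gap as a covariate. For IL6R, with no array above 2.34, the sham difference was -0.11 ± 0.06 (adjusted p = 0.237).

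IL17RA, the chain common to the IL17 receptors, was 1.37-fold higher in the sham atrium and 1.67-fold higher after uninephrectomy. Sham values were 5.37, 5.68, 5.41, 5.41 and 5.86 in the atrium and 5.30, 5.07, 5.20, 4.84 and 5.03 in the ventricle; after uninephrectomy they were 5.46, 5.54, 6.02, 5.73 and 5.55 and 5.37, 4.73, 4.57, 4.92 and 5.00. The chambers did not overlap under either operation. The sham difference was 0.46 ± 0.14 (adjusted p = 0.0273), which did not pass without sham atrial array 2 or 5 or ventricular array 4 or 5 (adjusted p from 0.0566 to 0.0809, differences from 0.38 to 0.44) or with quantile normalization (0.32 ± 0.15, adjusted p = 0.149). After uninephrectomy it was 0.74 ± 0.14 (adjusted p = 0.000675) and passed without any one array. Its partner chain IL17RC differed by -0.02 ± 0.10 in sham (adjusted p = 0.901). IL17RE, another partner, was called after uninephrectomy at 0.23 ± 0.08 (adjusted p = 0.045), with atrial arrays of 7.69 to 7.78 and ventricular arrays of 7.41 to 7.61. Its other probe sets were not called there: one gave 0.21 ± 0.11 (adjusted p = 0.157), and a dim one had the opposite sign, at -0.29 ± 0.11 (adjusted p = 0.0522). The dim one was called lower in the sham atrium, at -0.47 ± 0.11 (adjusted p = 0.00414). The ligands IL17A, IL17B and IL17F did not reach log2 3 on any array, whereas IL17C, the ligand of IL17RE, did so on 17 of 20, with a highest value of 3.34 and a sham difference of -0.16 ± 0.07 (adjusted p = 0.105). IL13RA1, a receptor chain for IL4 and IL13, differed by 0.12 ± 0.17 in sham (adjusted p = 0.7) and 0.42 ± 0.17 after uninephrectomy (adjusted p = 0.084), and was not called.

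The other 4 called members sat near log2 2, where differences are compressed. IL17RB, the receptor chain for IL25, was -0.29 ± 0.09 in sham (adjusted p = 0.0307), with ventricular values of 2.00, 2.08, 2.56, 2.51 and 2.26 against 1.93 to 2.13 in the atrium. IL20RB, a chain of the IL20 receptor, was -0.20 ± 0.07 (adjusted p = 0.0474), within 1.71 to 2.22 on all sham arrays. In a fit of the sham arrays alone neither passed (adjusted p of 0.11 and 0.105). With the array number added as a block the values were 0.0721 and 0.155. Nor did either pass with the 3′ gap as a covariate (0.104 and 0.124). The IL17RB call was lost without sham atrial array 1, 2, 4 or 5 or sham ventricular array 3, 4 or 5 (adjusted p from 0.0501 to 0.0866), and the IL20RB call in 14 of 20 such omissions (0.0521 to 0.136). IL16, a CD4 ligand, was 0.39 ± 0.10 after uninephrectomy (adjusted p = 0.00859), and IL1R1, the signalling receptor of IL1, was -0.43 ± 0.09 (adjusted p = 0.00238). IL1R1 read 2.23, 2.26, 2.14, 2.26 and 2.36 in that atrium and 2.56, 2.78, 2.71, 2.58 and 2.75 in that ventricle, without overlap.

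Genes around these ligands and receptors were followed through a list of 70 other chemokine, cytokine and signalling genes, of which 59 had a probe set and 46 were tested. Between sham chambers 4 of the 46 were higher in the atrium and 2 lower (background 20.8% called in either direction); after uninephrectomy 6 were higher and 2 lower (background 27.3%). The 3 named higher by the rule used here were CCRL2, IFNAR1 and IFNGR2. CCRL2, a receptor-like protein that binds chemerin without signalling, differed by 1.19 ± 0.31 in sham (adjusted p = 0.00895) and 1.64 ± 0.31 after uninephrectomy (adjusted p = 0.000549). The interferon receptor chain IFNAR1 differed by 0.88 ± 0.21 (adjusted p = 0.00569) and IFNGR2 by 0.59 ± 0.09 (adjusted p = 0.000151) in sham. JAK1, the kinase bound to many interleukin receptors, was the fourth. Lower were ACKR3, given above, and TNF, the macrophage cytokine, at -0.49 ± 0.12 (adjusted p = 0.00763) in sham and -0.83 ± 0.12 after uninephrectomy (adjusted p = 6.73e-05).

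All 5 fibroblast markers were higher in the atrium under both operations. Members called higher there share that direction by selection, so the shared direction carries no information on a link. Members called lower were IL15 under both operations, IL17RB and IL20RB in sham dogs and IL1R1 after uninephrectomy. Of 5 cardiomyocyte markers, 2 were called lower in the atrium and none higher, in sham dogs (background of lower calls 9.62%) and after uninephrectomy (12.5%). In the uninephrectomized atrium the fibroblast list averaged 10.12 (range over arrays 9.85 to 10.68), against 8.89 (8.56 to 9.13) in the ventricle. COL1A2 differed by 1.49 ± 0.22 in sham (adjusted p = 8.91e-05) and DCN by 0.41 ± 0.15 (adjusted p = 0.0604). The part of a different fibroblast, cardiomyocyte, smooth muscle or adipocyte content in the members' chamber differences was not tested.

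Uninephrectomy against sham gave no called member in either chamber, as it gave none among all 30047 probe sets (0% called by limma). In the atrium 4 of 73 tested members had an unadjusted p under 0.05 (5.48%), against 6.69% of all probe sets. The ventricle also had 4 of 73 (5.48%), against 6.67%. The median difference over the members was -0.05 in each chamber, beside -0.00 over all probe sets. Of the 73 members 50 were negative in the atrium and 47 in the ventricle, beside 15339 and 15488 of 30047 probe sets. Many members ran high or low on the same arrays, so they are not independent. The half-width of the 95% confidence interval had a median of 0.25 over the 73 tested members, 41 of them with a mean under log2 3. By family the median was 0.36 for CCL, 0.45 for CXCL and 0.15 for the 1 tested CXCR. It was 0.26 for interleukins and 0.20 for interleukin receptors and related genes. Differences within such a distance of 0 could not be resolved for a typical member of the family. The intervals, and not the missed threshold, say how large a difference these arrays leave possible.

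**Figure D4:**
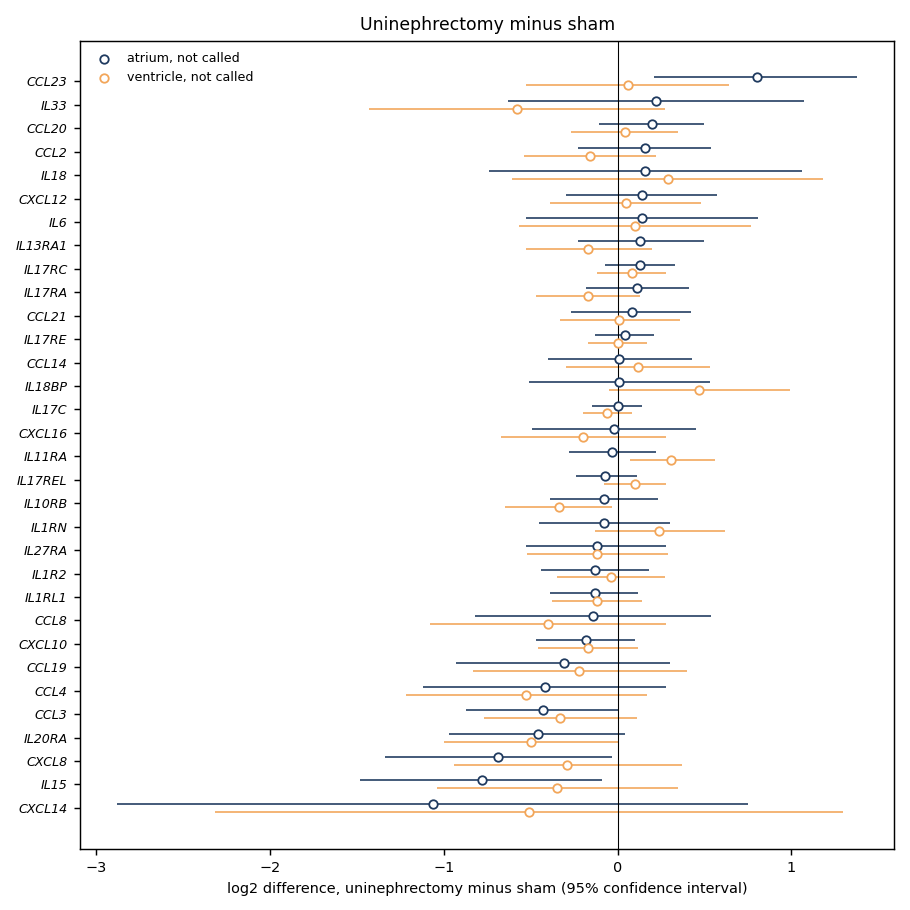
Log2 difference between uninephrectomy and sham (x axis, points) with its 95% confidence interval (lines) in atrium and ventricle for the members with a mean signal of at least log2 3 (y axis), n = 5 arrays per group. No member passed an adjusted p of 0.05; CCL23 lies farthest to the right and CXCL14 farthest to the left in the atrium.

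CCL23 had the smallest p of the members in the atrium. Its atrial values are given above, from 5.39 to 6.43 in sham and from 6.33 to 7.28 after uninephrectomy, so that only sham array 5 reached into the range of the operated dogs. The difference was 0.80 ± 0.28 (95% confidence interval 0.21 to 1.38, adjusted p = 0.674), and in the ventricle it was 0.06 ± 0.28. IL15 was at -0.78 ± 0.33 in the atrium (interval -1.48 to -0.09, adjusted p = 0.71) and -0.35 ± 0.33 in the ventricle. Its second probe set gave -0.45 ± 0.16 in the atrium (adjusted p = 0.679), where the groups did not overlap, and -0.47 ± 0.16 in the ventricle (adjusted p = 0.639). CXCL8 read 8.79, 10.13, 10.06, 9.31 and 9.97 in the uninephrectomized atrium, below the highest sham arrays, with a difference of -0.69 ± 0.31 (interval -1.34 to -0.03, adjusted p = 0.735). The remaining atrial members named by the rule, IL10RA, IL6R and CCL1, had no array above 2.34 and differences of 0.13, 0.10 and -0.14.

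IL11RA had the smallest p in the ventricle. Its sham ventricular values of 5.16 to 5.30 lay below all of the uninephrectomized values of 5.39 to 5.69. The difference was 0.31 ± 0.12 (interval 0.07 to 0.56, adjusted p = 0.682), against -0.03 ± 0.12 in the atrium. IL18BP, the decoy that binds IL18, was at 0.47 ± 0.25 in the ventricle (interval -0.05 to 0.99, adjusted p = 0.758), with uninephrectomized array 5 the highest at 6.56 and 0.27 without it. IL10RB, a chain shared by the IL10 and IL22 receptors, was at -0.34 ± 0.15 (adjusted p = 0.72), IL6ST at -0.25 ± 0.12 (adjusted p = 0.74) and IL20RA at -0.50 ± 0.24 (adjusted p = 0.748). IL2RG, with no array above 2.24, was at 0.18 ± 0.08.

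Members that respond to tissue injury in many settings were near 0 or widely bounded. For IL6 the atrial difference was 0.14 ± 0.32 (interval -0.53 to 0.81) and the ventricular one 0.10 ± 0.32 (-0.57 to 0.77). For CCL2 they were 0.16 ± 0.18 (-0.23 to 0.54) and -0.16 ± 0.18 (-0.54 to 0.22). IL33 was at 0.22 ± 0.41 in the atrium and -0.58 ± 0.41 in the ventricle (-1.43 to 0.27). CXCL12 had intervals of -0.30 to 0.57 and -0.39 to 0.48. For IL1B, IL18 and IL1RL1 the adjusted p was between 0.86 and 0.977 in both chambers.

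The response to uninephrectomy was then compared between the chambers. No member and no probe set passed (0% called by limma); 2 of 73 members had an unadjusted p under 0.05 (2.74%), against 2.97% of all probe sets. Those with the smallest p were IL6R at 0.18 ± 0.09, IL12A at -0.25 ± 0.12 and IL11RA at -0.34 ± 0.17 (atrial minus ventricular response, adjusted p = 1 each). For CCL23 the difference of the responses was 0.74 ± 0.40 (interval -0.09 to 1.57), so its chamber difference after uninephrectomy is not shown to differ from that in sham dogs. The same holds for IL33, at 0.80 ± 0.57 (-0.40 to 2.01). All of these contrasts share arrays, and none of them is a separate experiment.

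Several members were widely spread between arrays of 1 group. Of the 32 members with a mean of at least log2 3, the median within-group SD was 0.33, beside 0.23 for the 16670 probe sets of that signal, and 8 of 32 (25.0%) had an SD of 0.5 or above, beside 10.3%. CXCL14 led with 1.47, followed by IL18 with 0.73 and IL33 with 0.69. CCL4 and CCL8, monocyte and lymphocyte attractants, had SDs of 0.56 and 0.55. CCL4 read 5.71, 7.43, 6.78, 7.78 and 7.82 in the sham atrium and CCL8 5.04, 5.89, 5.15, 6.94 and 5.74, so that array 1 was the lowest for both. CCL19, which guides lymphocytes and dendritic cells, was at 2.89, 4.08, 3.33, 2.99 and 5.10 there, with array 5 the highest.

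Among the 32 members that spread ran along arrays. Such counts were not computed over all probe sets of that signal, so the pattern is not shown to be particular to the members. Sham atrial array 5 was the highest of its group for 16 of the 32 members and array 1 the lowest for 18. Among uninephrectomized ventricles array 1 was the highest for 16 and array 4 the lowest for 12, and uninephrectomized atrial array 1 was the lowest for 14. The 3′ gap of sham atrial arrays 1 and 5 was 0.97 and 1.11, in a group that ranged from 0.97 to 1.41. Uninephrectomized ventricular arrays 1 and 4 had gaps of 1.17 and 1.04, and uninephrectomized atrial array 1 one of 0.93. The part of the gap in this spread was not tested. Which cells or handling set these arrays apart was not tested.

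Many members lie beside each other in the RefSeq annotation of assembly mCanLup2.hap1, which is from a wolf (Canis lupus baileyi) and is used here only for gene order. Of 101 members found by symbol in it, 47 stood in 17 runs with at most 3 other genes between neighbours. One run holds IL18RAP, IL18R1, IL1RL1, IL1RL2, IL1R1 and IL1R2, receptors of the IL1 family, and another IL1RN, IL1F10, IL36RN, IL36B, IL1B and IL1A, ligands and antagonists of that family. In the first run IL1R1 was called lower in the uninephrectomized atrium, at -0.43, while IL1R2, the decoy receptor, was at 0.08 ± 0.15 and IL1RL1 at -0.16 ± 0.12, neither called. A further run joins IL11RA with CCL27, CCL19 and CCL21. There IL11RA was called in sham dogs, CCL19 was at 0.55 ± 0.29 (adjusted p = 0.209) and CCL21 at -0.27 ± 0.17 (adjusted p = 0.271), and CCL27 was below the filter.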

How the data were processed

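The values are the authors' deposited log2 signals per probe set. Their summarization, background correction and normalization are not given in the sources used here. Values range from 0.43 to 15.0, with array medians of 2.33 to 2.39. Per the labels' protocols, total RNA was prepared with Trizol, and 100 ng of it was the input for biotin labelling. Gene names come from the platform annotation, which gives 29264 of 43035 probe sets 1 symbol, 439 several and does not list 13332. The 111 control probe sets and the lowest 30% by mean were left out.

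The test was limma's (version 3.58.1, under R 4.3.3), two-sided, with lmFit and eBayes in 1 fit of 20 arrays with 4 group means and 16 residual degrees of freedom. Benjamini-Hochberg adjustment ran over 30047 probe sets, with a threshold of 0.05. The script was tested on simulated data.

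Members and lists were chosen with earlier results of these data known. Named members are, for each chamber comparison, called members up to 8 per direction; for each surgery comparison, 3 per direction by p; for the difference of responses, 3 by p; the highest mean of each family; and 16 genes set by name. Other members given beside them share a receptor, a run or a high spread with these. From the list of other pathway genes, 3 per direction were named.

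Whether equal array numbers mark 1 dog was checked from deviations from the group means. Sham atrial and ventricular arrays of equal number correlated at 0.463, 0.226, 0.373, 0.295 and 0.209 across probe sets. For all 5 sham atrial arrays the ventricular array of equal number was the best match, so these were taken as pairs, from the data and not from the labels. Alternatives covered the filter, array scaling, the arrays in the fit, blocks, a variance trend, the 3′ gap, all probe sets of a gene and leaving out each array. The precision is limited by the 5 arrays per group.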

Additional observations from a re-analysis of the deposited data

Results flagged for a closer look

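A sample far from the other 4 of its group was found in 5 of 136 groups tested, over 34 named members. Chance alone would give about 6.8 (1 in 20), so these are values to look at and no more. CXCL14 in sham ventricular array 3 was 4.51, with the next highest at 2.47; without that array the sham difference between the chambers was 3.22 ± 0.88 (adjusted p = 0.0151, limma). CXCL10 in uninephrectomized atrial array 4 was 12.66, with the nearest at 13.29; without it the sham chamber difference, which shares the estimate of spread, passed at -0.35 ± 0.11 (adjusted p = 0.0265). IL1RL1 in sham ventricular array 5 was 3.69, with the nearest at 3.11; without it the sham chamber difference was -0.01 ± 0.09 (adjusted p = 0.962). Both other values lay near log2 2: IL17RB in sham atrial array 3 at 2.13 (nearest 1.99), and IL16 in sham atrial array 4 at 2.38 (nearest 2.19).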

How the results depend on the processing

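The count of called members was 0 for uninephrectomy in the atrium, in the ventricle and for the difference of the responses under every alternative run, leave-one-out included. For the sham chamber comparison the count of 9 became 5 when the fit held only the arrays of those groups, and ranged from 4 to 11 over the leave-one-out fits; after uninephrectomy the count of 11 ranged from 8 to 13. The difference of the responses uses all 4 groups, so a fit of only the groups compared could not differ for it. With the array number as a replicate block, fitted to the sham arrays alone, the count was 7, beside 5 for those arrays without a block. With number and operation as a random block over all 20 arrays (consensus correlation 0.0933) the counts were 10 and 13. The share over all probe sets is not given here for these alternative counts, so they are not set against a background. Against the main fit, the fixed-block fit changed the sham calls given in the report for CXCL14, CXCL16, IL17RB, IL20RB, CXCL10 and CXCL8. No other sham call of a named member changed. The calls of CXCL14, CXCL16, IL17RB and IL20RB were also lost on the sham arrays without a block. Uninephrectomized arrays of equal number correlated at -0.0608, -0.0689, 0.115, -0.235 and 0.0971. None of the 5 correlated best with its own number. Their atrial arrays 1 to 5 correlated best with ventricular arrays 3, 4, 1, 5 and 2, at 0.437, 0.323, 0.167, 0.536 and 0.298. Each atrial array had a different partner, so these arrays may be paired in another order. No fit used that order. The fixed replicate block by number, which gave 8 called members there, joined other arrays, as did the random block among uninephrectomized arrays. Signs turned only for differences close to 0: the sham chamber difference of IL6ST was 0.00 with the 3′ gap as a covariate and -0.09 to 0.05 over leave-one-out fits, and that of CXCR3 -0.01 to 0.08. Over all settings of single named members, 1243 values kept their direction and side of the threshold, 62 lost the threshold, 18 gained it and 6 turned sign. Leaving out an array outside a comparison of 2 groups changes only the spread and cannot change the difference. Members that were not called had no threshold to lose. This total is therefore no measure of how stable the called members are. Signal near the low end limits what can be said of 77 members that did not reach log2 3.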

Other observations

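Some members were called only on a probe set other than the one with the highest mean. A second IL5 probe set, for the eosinophil growth factor, was at -0.48 ± 0.15 (adjusted p = 0.0276, limma) between sham chambers and -0.47 ± 0.15 (adjusted p = 0.0251) after uninephrectomy, with group means from 2.21 to 2.72. Its brightest probe set gave -0.15 ± 0.13 (adjusted p = 0.462) and -0.35 ± 0.13 (adjusted p = 0.0512). A second probe set of CCL20, an attractant of lymphocytes and dendritic cells, was at 0.62 ± 0.22 after uninephrectomy (adjusted p = 0.0439), with means of 2.69 and 2.07 that did not overlap, while its brightest probe set gave 0.31 ± 0.15 (adjusted p = 0.122). Counting a member as called on any of its probe sets gave 11 members between sham chambers and 15 after uninephrectomy. The share of all genes called when counted that way was not computed, so these counts have no background beside them.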
